A study of Mus musculus with 64 samples.

Results

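Bdnf and 7 genes that act with it were followed through the hippocampal response to corticosterone (CORT). They were the neurotrophins Bdnf and Ntf3, the receptors Ntrk2, Ntrk3 and Ngfr, the sorting receptors Sort1 and Sorcs2, and Vgf, chosen by gene symbol because Bdnf is the gene altered in the mouse line studied. All 8 were present in each of the 8 deposited tables, among 18283 genes in the dorsal hippocampus (dHPC) and 21088 in the ventral hippocampus (vHPC). The mice were C57BL/6, of both sexes, and either wild type (WT) or carriers of the BDNF Val66Met allele (hMet), which the study describes as heterozygous. From 2 months of age they drank 1% ethanol in water, either alone (vehicle) or with CORT at 25 mg/l, for 6 weeks. By the sample labels there were 16 groups of 4 libraries (64 altogether), and each library held RNA pooled from 2 animals. The residual degrees of freedom deposited for the vHPC, 22, are what 30 libraries in 8 groups would give. Fewer libraries than labelled, or further model terms, may therefore stand behind the vHPC values. A table compares CORT with vehicle within 1 sex, genotype and region, so the question each answers is whether CORT moved a gene in that group. The values are log2 fold changes from limma-voom as the authors deposited them, and the sign was taken to mean CORT over vehicle, a direction that the column names leave unsaid. With no value per library in the tables, no spread between libraries and no depth per library is given, and the error printed is the standard error (SE) behind limma's moderated t. Each p measures only the spread between these pooled libraries.

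Neurotrophins are secreted growth factors that neurons make as longer proneurotrophins, which proteases cut to the mature form. Mature BDNF and neurotrophin 3 act on the tyrosine kinase receptors TrkB (Ntrk2) and TrkC (Ntrk3), which promote survival, growth and synaptic strength, whereas the uncut forms bind the receptor p75NTR (Ngfr) together with sortilin (Sort1) or SorCS2 (Sorcs2). Sortilin also directs BDNF to the regulated secretory pathway, and the exchange of valine for methionine in the prodomain lowers activity-dependent BDNF release. Vgf, a granule protein that is cut into peptides, is induced by BDNF. In the hippocampus BDNF is best known in granule and pyramidal neurons, and stress hormones act on its transcription.

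The allele that separates the genotypes lies in the Bdnf coding sequence, shown here for the site itself. Bdnf lies on chromosome 2 of GRCm38 from 109674700 to 109727007, on the plus strand. The allele is named after the human protein. In the mouse annotation the reading frame shared by 9 of 11 coding transcripts has GAG at codon 66, and the next valine codon is codon 68, GTC, at chr2:109723604-109723606. The reference sequence around it, at chr2:109723577-109723633 on the plus strand, is given with that valine codon in capitals.
Bdnf prodomain site: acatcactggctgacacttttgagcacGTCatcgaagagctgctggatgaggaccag
The allele is named for a changed codon, and gene-level values do not separate the 2 alleles, so the read count of Bdnf does not check the genotype labels. The tables hold no comparison of hMet with WT mice at rest, and a baseline difference in Bdnf was not analysed here.

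Bdnf is read from several promoters that the gene-level values do not separate. RefSeq windows of 300 bases around a start site (250 before it and 50 after it, GRCm38.p6) were held for 4 of the 8 genes, 11 windows in all. None of the 11 held the full cAMP response element TGACGTCA or the palindromic glucocorticoid response element. Searched on both strands without mismatches, they occur in 1.79% and 0.00913% of 32851 windows of all genes. The shorter letters TGACG, which lie within the full cAMP element, occur in 20.8% of all windows and in a single one of the 11. That window belongs to Bdnf, and its 250 bases before the start site, at chr2:109692186-109692435, are shown because they hold this element, in capitals as CGTCA on the plus strand, 35 bases before the start.
Bdnf upstream window: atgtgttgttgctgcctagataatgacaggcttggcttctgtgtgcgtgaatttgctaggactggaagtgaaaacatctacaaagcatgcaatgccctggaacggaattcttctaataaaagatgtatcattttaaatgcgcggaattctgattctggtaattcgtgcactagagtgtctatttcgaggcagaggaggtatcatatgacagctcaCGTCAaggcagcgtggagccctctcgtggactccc
The E-box CACGTG, in 7.15% of all windows, was found in 1 of the 2 Ntf3 windows. A match describes the letters only, and no match is no statement about a factor.

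**Figure D1:**
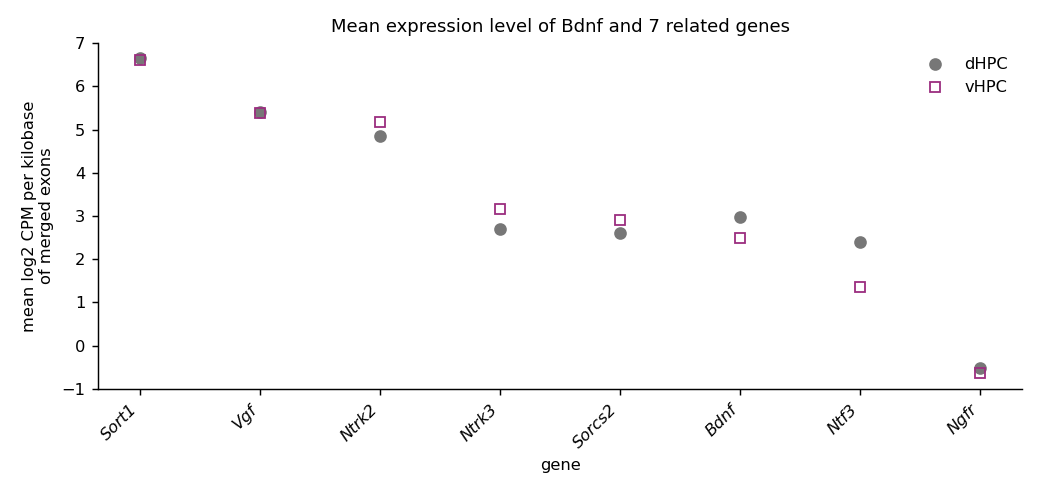
Mean expression level in log2 CPM per kilobase of merged exons (y axis) of the 8 genes (x axis), as the mean over all libraries of the dHPC (filled circles) and of the vHPC (open squares). Sort1 stands highest at 6.65 and 6.60, and Ngfr lowest at -0.51 and -0.64.

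Sort1 was the most abundant of the 8 genes per length of transcript and Ngfr the least. In mean log2 CPM per kilobase of merged exons, Sort1 stood at 6.65 in the dHPC and 6.60 in the vHPC, followed by Vgf (5.42 and 5.38) and Ntrk2 (4.84 and 5.18). Bdnf stood at 2.97 and 2.49, in the middle of the 8 together with Ntrk3 (2.69 and 3.17), Sorcs2 (2.62 and 2.90) and Ntf3 (2.41 and 1.36). Ngfr, at -0.51 and -0.64, was the only one of the 8 below 0 on this scale. With the longest transcript in place of merged exons, Ntrk2 passed Vgf in both regions and the places of the other 6 genes did not move. The spread of these levels over libraries is not held, so neighbours in this order were not tested.

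The ligand genes Bdnf and Ntf3 and their receptor genes Ntrk2 and Ntrk3 differed between regions in opposite directions. Mean log2 CPM was lower in the vHPC than in the dHPC for Ntf3 (2.13 against 3.18) and Bdnf (5.12 against 5.61), and higher for Ntrk3 (8.09 against 7.61) and Ntrk2 (9.45 against 9.11). Among 13882 genes that averaged at least 1 log2 CPM in both regions, the median absolute difference between regions was 0.19, and 195 genes differed by more than Ntf3 and 1643 by more than Bdnf. More than Ntrk3 differed 1732 genes, and more than Ntrk2 3365. The regions were fitted separately, so these differences have no test. Sorcs2, a sorting receptor, was higher in the vHPC by 0.29, and 4356 genes differed by more. Vgf, Sort1 and Ngfr differed between regions by -0.04, -0.05 and -0.13 on the same scale.

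In bulk tissue such as this, fewer cells of a type and less RNA per cell cannot be told apart. No gene of the 8 passed an adjusted p of 0.05 in any comparison, and 6 of the 64 tests had an unadjusted p under 0.05, all of them in the vHPC and all higher with CORT. In the dHPC 0 of 8 genes were under 0.05 in each group, where the share of all genes under it was 6.48% in WT females, 4.55% in WT males, 3.23% in hMet females and 6.34% in hMet males. In the vHPC there was 1 of 8 in WT females (3.18% of all genes), 2 of 8 in WT males (7.24%), 0 of 8 in hMet females (5.66%) and 3 of 8 in hMet males (18.3%). The 3 in hMet males were Bdnf, Ntrk3 and Sort1, all higher, a call that 9.33% of all genes had there. With the study's fold filter of 1.3 added to p under 0.05, Bdnf in hMet males alone was left of the 64, in a comparison where 4.96% of all genes passed both. At an adjusted p under 0.05 that comparison held 139 genes, 0.659% of those tested. The smallest adjusted p of the 8 genes was 0.0710, for Bdnf in hMet males, from limma with Benjamini-Hochberg adjustment over all genes.

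**Figure D2:**
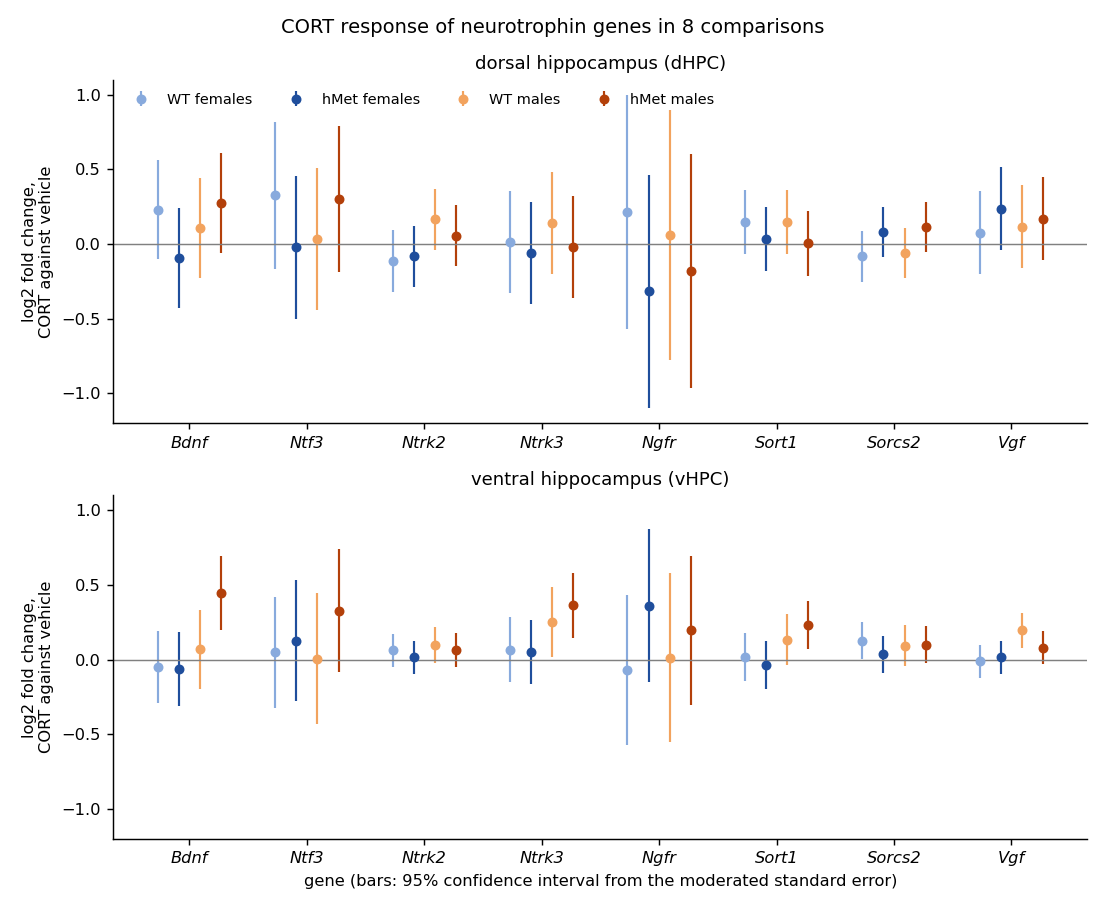
Log2 fold change of CORT against vehicle (y axis) for each of the 8 genes (x axis) in the dHPC (top) and the vHPC (bottom). Points are the deposited values of 4 groups and bars their 95% confidence intervals from the moderated standard error. The interval of Bdnf in hMet males in the vHPC runs from 0.20 to 0.69, while the other 3 Bdnf intervals there span 0.

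Among the ligands, Bdnf was higher with CORT in the vHPC of hMet males and stood near 0 in the other vHPC groups. In the vHPC it had log2 fold changes of -0.05 (WT females), 0.07 (WT males), -0.06 (hMet females) and 0.45 (hMet males). The value in hMet males, 1.36-fold, had an SE of 0.12, a 95% interval of 0.20 to 0.69, a p of 0.00102 and an adjusted p of 0.0710 by limma, and placed Bdnf at rank 298 of 21088 genes by p. The other 3 groups had SEs of 0.12 to 0.13 and p between 0.602 and 0.685. In the dHPC, Bdnf was at 0.23 in WT females, 0.11 in WT males, -0.09 in hMet females and 0.27 in hMet males. These dHPC values had SEs of 0.16, larger than in the vHPC, and their p lay between 0.107 and 0.578. The largest of the 4 was again that of hMet males, with an interval from -0.06 to 0.61. Bdnf shares 14.4% of its exon bases with the antisense gene Gm45346, which is not among the genes of the tables, and whether the counting used strand is not given in the sources used here.

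Ntf3, which encodes neurotrophin 3 (chromosome 6 from 126101412 to 126166910, minus strand), had its largest vHPC value in the same group as Bdnf, short of a p under 0.05. Its log2 fold changes in the vHPC were 0.05 in WT females, 0.01 in WT males, 0.13 in hMet females and 0.33 in hMet males, with SEs of 0.18 to 0.21. The p of hMet males was 0.114. In the dHPC they were 0.33, 0.03, -0.02 and 0.30 in the same order of groups, with SEs of 0.23 to 0.24 and p of 0.186 or more. Ntf5, the gene of neurotrophin 4, had a mean level of -1.67 log2 CPM in the dHPC and -1.96 in the vHPC, and SEs of 0.40 to 1.04 leave its fold changes without resolution.

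Among the receptors, Ntrk3 was higher with CORT in males of the vHPC in both genotypes. Ntrk3, the TrkC gene (chromosome 7 from 78175959 to 78738012, minus strand), had vHPC log2 fold changes of 0.07 in WT females, 0.25 in WT males, 0.05 in hMet females and 0.36 in hMet males. The values of WT males (SE 0.11, unadjusted p of 0.0362, adjusted p = 0.647 by limma) and of hMet males (SE 0.11, unadjusted p of 0.00198, adjusted p = 0.0864) were larger than their errors, and those of females were not. In the dHPC Ntrk3 lay between -0.06 and 0.14, with SEs of 0.17. Ntrk2, the gene of the BDNF receptor TrkB (chromosome 13 from 58806569 to 59133970, plus strand), had vHPC values of 0.06, 0.10, 0.02 and 0.06 in WT females, WT males, hMet females and hMet males. All 4 were within 2 SEs of 0, and at SEs of 0.05 to 0.06 their 95% intervals reached at most 0.22, a change of 1.16-fold. In the dHPC Ntrk2 was at -0.12 in WT females and -0.08 in hMet females against 0.16 in WT males and 0.06 in hMet males, with SEs of 0.10 and p of 0.112 or more.

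Ngfr, the p75NTR gene (chromosome 11 from 95568818 to 95587735, minus strand), averaged 1.28 log2 CPM in the dHPC and 1.14 in the vHPC and was measured with large error. Its values ran from -0.32 in hMet females of the dHPC to 0.36 in hMet females of the vHPC, with SEs of 0.24 to 0.41 and p of 0.158 or more. Even in the vHPC its 95% interval in hMet males ran from -0.30 to 0.69, so a change of the size seen in Bdnf was not detectable at this level.

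Among the sorting receptors, Sort1 was higher with CORT in hMet males of the vHPC, and Sorcs2 had small values above 0 in all 4 vHPC groups. Sort1, sortilin (chromosome 3 from 108284082 to 108361511, plus strand), had vHPC log2 fold changes of 0.02 in WT females, 0.13 in WT males, -0.04 in hMet females and 0.23 in hMet males. The value of hMet males had an SE of 0.08, a p of 0.00625 and an adjusted p of 0.117 by limma, and the p of the other 3 groups were 0.125 or more. In the dHPC Sort1 was at 0.15 in WT females, 0.15 in WT males, 0.03 in hMet females and 0.00 in hMet males, with SEs of 0.11, so hMet males had the smallest value there. Sort1 shares 4.47% of its exon bases with the antisense gene Gm12523, also not among the genes of the tables. Sorcs2 (chromosome 5 from 36017180 to 36398139, minus strand) had vHPC values of 0.13 in WT females, 0.09 in WT males, 0.03 in hMet females and 0.10 in hMet males. The first of these, with an SE of 0.06, a p of 0.0445 and an adjusted p of 1.00 by limma, was the only value of WT females under 0.05 among the 8 genes. In the dHPC Sorcs2 lay below 0 in WT mice (-0.08 in females, -0.06 in males) and above 0 in hMet mice (0.08 and 0.11), with SEs of 0.08 and p of 0.177 or more.

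The other sorting receptors of this family gave mixed values in hMet males of the vHPC. Sorl1, which sorts the amyloid precursor protein, was at 0.27 (SE 0.09, unadjusted p of 0.00518, adjusted p = 0.111 by limma) and Sorcs1 at -0.34 (SE 0.17, unadjusted p of 0.0477, adjusted p = 0.267). Sorcs3 was at 0.11 with a p of 0.0813. In WT males of the vHPC the same genes were at 0.18, 0.03 and 0.04, with p of 0.0676 or more.

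Vgf (chromosome 5 from 137026392 to 137033351, plus strand) was higher with CORT in the vHPC of WT males. Its vHPC log2 fold changes were -0.01 in WT females, 0.20 in WT males, 0.01 in hMet females and 0.08 in hMet males. The value in WT males had an SE of 0.06, a p of 0.00217, rank 110 of 21088 genes, and an adjusted p of 0.409 by limma. Those of females lay within 1 SE of 0, and that of hMet males had a p of 0.144. In the dHPC all 4 values were above 0, at 0.07, 0.12, 0.23 and 0.17 in WT females, WT males, hMet females and hMet males, with SEs of 0.14 and p of 0.0958 or more.

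The 4 comparisons of a region share no library, and their fold changes were combined to ask whether CORT moved a gene over the groups and whether the sexes or genotypes differed in their response. In the vHPC the mean CORT response of all 8 genes lay above 0, as it did for 48.6% of all genes, and 5 of the 8 had a p under 0.05 (14.6% of all genes, and 6.91% counting higher ones only). Ntrk3 had a mean of 0.18 (SE 0.05, unadjusted p of 0.00225, adjusted p = 0.112 by limma's errors), Sorcs2 0.09 (SE 0.03, unadjusted p of 0.00787, adjusted p = 0.168) and Vgf 0.07 (SE 0.03, unadjusted p of 0.0166, adjusted p = 0.223). Ntrk2 (0.06, unadjusted p of 0.0428) and Sort1 (0.09, unadjusted p of 0.0401) were also under 0.05, at adjusted p of 0.320 and 0.311. None of the 8 was among the 132 genes, 0.626% of those tested, whose mean passed an adjusted p of 0.05. Bdnf had a mean of 0.10 (SE 0.06, unadjusted p of 0.109), and without hMet males it was -0.01. Without WT females it was 0.15 (unadjusted p of 0.0441), and without hMet females 0.16 (unadjusted p of 0.0366). Leaving out hMet males took Ntrk3 to 0.12 (unadjusted p of 0.0611) and Sort1 to 0.04 (unadjusted p of 0.427), and leaving out WT males took Vgf to 0.03 (unadjusted p of 0.378) and Sort1 to 0.07 (unadjusted p of 0.132). Ntrk2 lost its p under 0.05 without WT females, WT males or hMet males, at means of 0.05 to 0.06, and Sorcs2 stayed under 0.05 whichever group was left out, at 0.08 to 0.11.

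In the dHPC 7 of the 8 means lay above 0, as did 48.3% of all genes. Only the mean of Vgf had a p under 0.05, where 6.82% of all genes did. The mean of Vgf was 0.15 (SE 0.07, unadjusted p of 0.0370, adjusted p = 0.705 by limma's errors), and without hMet females it was 0.12 (unadjusted p of 0.137), without WT males 0.16 (unadjusted p of 0.0516) and without hMet males 0.14 (unadjusted p of 0.0814). Bdnf had a mean of 0.13 (SE 0.08, unadjusted p of 0.126) in this region, and without hMet females it was 0.20 (unadjusted p of 0.0403). Sort1 was at 0.08 (SE 0.05, unadjusted p of 0.131). Errors in the dHPC were 1.26 to 1.39 times those in the vHPC for Bdnf and 2.35 to 2.55 times for Vgf.

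**Figure D3:**
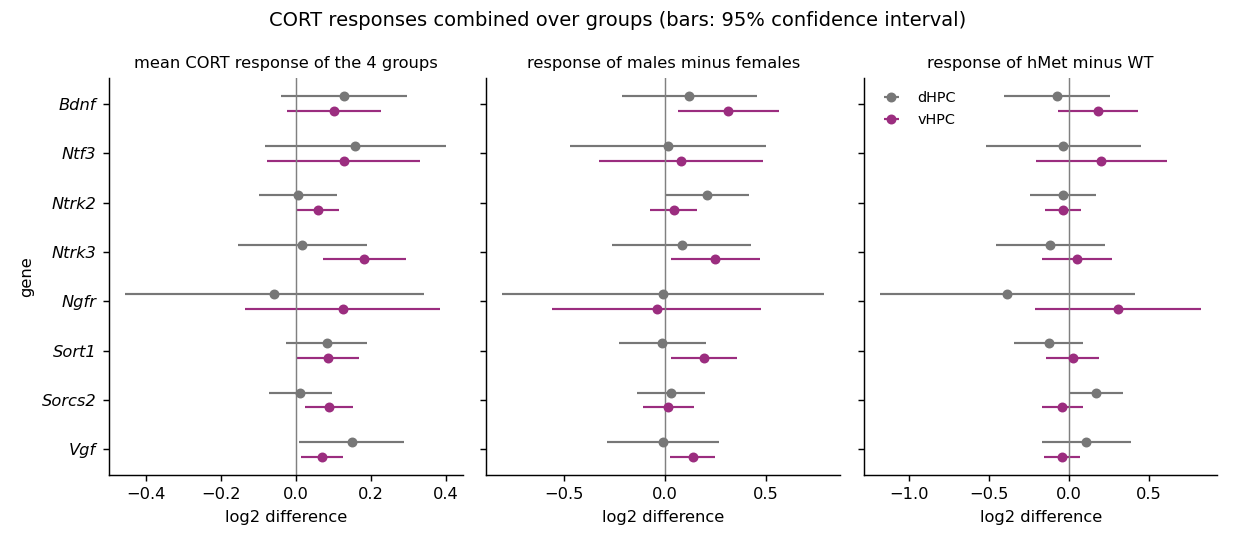
CORT responses of the 8 genes (y axis) combined over the 4 groups of a region, as log2 differences (x axes) with 95% confidence intervals, for the dHPC (grey) and the vHPC (purple). The left panel gives the mean response, the middle panel males minus females and the right panel hMet minus WT. In the middle panel the vHPC intervals of Bdnf, Ntrk3, Sort1 and Vgf lie above 0.

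The response to CORT was larger in males than in females of the vHPC for 4 of the 8 genes at p under 0.05, all in that direction, where 11.8% of all genes differed between the sexes and 5.61% did so with males above females. Bdnf averaged 0.26 in males and -0.06 in females, a difference of 0.31 (SE 0.12, 95% interval 0.06 to 0.56, unadjusted p of 0.0163, adjusted p = 0.332 by limma's errors). Ntrk3 differed by 0.25 (SE 0.11, unadjusted p of 0.0285, adjusted p = 0.375), Sort1 by 0.19 (SE 0.08, unadjusted p of 0.0221, adjusted p = 0.349) and Vgf by 0.14 (SE 0.05, unadjusted p of 0.0185, adjusted p = 0.338). None of these passed after adjustment over all genes. Sorcs2 differed by 0.02 with an interval of -0.11 to 0.14, and Ntrk2 by 0.04 with an interval of -0.07 to 0.16. In the dHPC the only gene of the 8 under 0.05 was Ntrk2, by 0.21 (SE 0.10, unadjusted p of 0.0463, adjusted p = 0.843), with a mean of 0.11 in males and -0.10 in females, and 5.82% of all genes were under 0.05 there.

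Within hMet mice of the vHPC the sex difference was 0.51 for Bdnf (SE 0.17, 95% interval 0.16 to 0.86, unadjusted p of 0.00597, adjusted p = 0.207 by limma's errors), 0.31 for Ntrk3 (unadjusted p of 0.0454) and 0.27 for Sort1 (unadjusted p of 0.0209). These were 3 of 8 genes, and 15.6% of all genes had a p under 0.05 in that comparison. Within WT mice Vgf alone of the 8 was under 0.05, at 0.21 (SE 0.08, unadjusted p of 0.0138, adjusted p = 1.00), as were 4.33% of all genes. The sex difference of Bdnf in WT mice was 0.12, with an interval of -0.24 to 0.47.

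The CORT response differed between genotypes at an unadjusted p under 0.05 for 1 gene in 1 region and for Bdnf among males. In the vHPC 0 of 8 genes had a p under 0.05 for hMet minus WT (2.23% of all genes), and Bdnf stood at 0.18 (SE 0.12, unadjusted p of 0.147). Among males alone Bdnf responded 0.38 higher in hMet than in WT mice (SE 0.18, 95% interval 0.02 to 0.74, unadjusted p of 0.0416, adjusted p = 1.00 by limma's errors), the only one of the 8 under 0.05 where 3.28% of all genes were, and among females the difference was -0.01 with an interval of -0.36 to 0.33. In the dHPC Sorcs2 was 1 of 8 under 0.05 (2.44% of all genes), with -0.07 in WT and 0.10 in hMet mice. The difference was 0.17 (SE 0.08, unadjusted p of 0.04998, adjusted p = 1.00 by limma's errors). Its 95% interval, from 1.43e-05 to 0.34, only just left out 0. The test of whether the sex difference depended on genotype left 0 of 8 genes under 0.05 in either region, where 6.28% of all genes in the dHPC and 6.31% in the vHPC did, and for Bdnf in the vHPC it gave 0.39 (SE 0.24, unadjusted p of 0.118). The response of Bdnf in hMet males is thus not shown to depend on sex and genotype jointly.

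Genes that BDNF induces in neurons, a list of 23 that also respond to neuronal activity, had lower values in females than in males of the vHPC, with no gene of the list past an adjusted p of 0.05 for that difference. In hMet females 22 of the 23 lay below 0, all but Vgf, and 9 had a p under 0.05, all lower, a call that 2.48% of all genes had there. Their median was -0.22, against 0.00 over all genes, and 0 of 23 passed an adjusted p of 0.05. Arc, which acts in synaptic plasticity, was at -0.55 (SE 0.16, unadjusted p of 0.00238, adjusted p = 0.849 by limma), the nuclear receptor Nr4a1 at -0.46 (unadjusted p of 0.00324) and the scaffold gene Homer1 at -0.22 (unadjusted p of 0.00540), Arc and Homer1 being named here after their values were seen. In hMet males 3 of 23 were higher and 1 lower at p under 0.05, near the 18.3% of all genes, with a median of 0.08, and Trib1 was the lower one, at -0.34 (unadjusted p of 0.00556). For males minus females over both genotypes all 23 lay above 0, with a median of 0.25, and 12 of 23 had a p under 0.05, as did 5.61% of all genes with males above females. The smallest p of these 12 was that of Arc, at 0.74 (SE 0.17, unadjusted p of 0.000144, adjusted p = 0.131). WT females had 6 of 23 lower and 0 higher (3.18% of all genes in either direction), and WT males 2 higher and 0 lower, near the 7.24% of all genes. Vgf belongs to this list, and its female values were -0.01 in WT and 0.01 in hMet mice. The list was chosen with earlier results of these data known, so its counts beside the shares of all genes are a description. In hMet females all 8 choroid plexus markers lay above 0 (1.17 to 2.71, median 2.10, 0 of 8 at p under 0.05), while in the other 3 vHPC groups all 8 lay below 0 with medians of -0.95 to -0.59. The part of this in the listed genes was not tested.

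**Figure D4:**
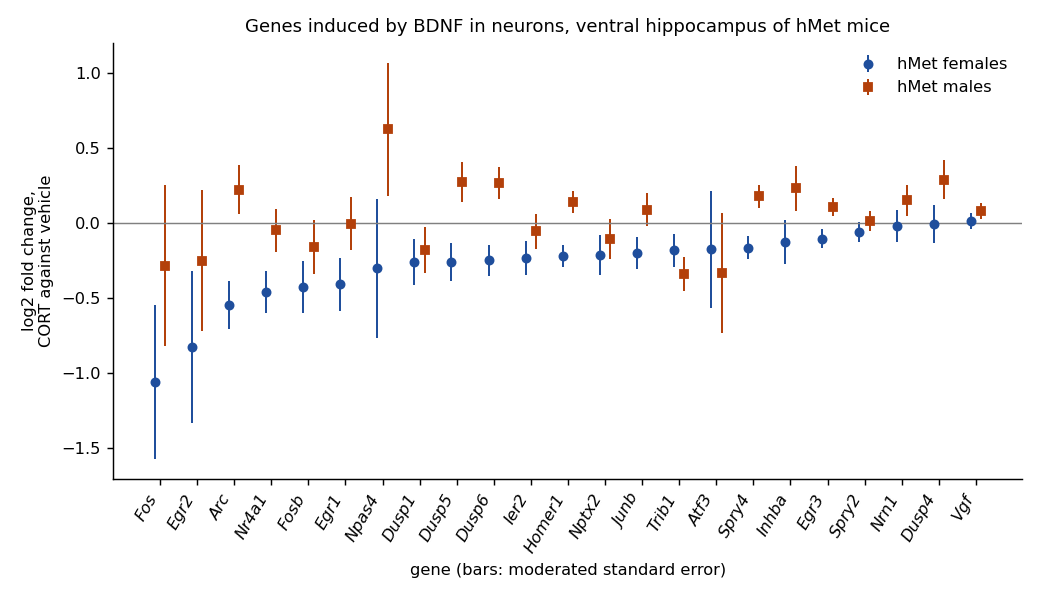
Log2 fold change of CORT against vehicle (y axis) in the vHPC of hMet females (circles) and hMet males (squares) for the 23 listed genes (x axis), ordered by the female value, with bars for the moderated standard error. In females 22 of the 23 points lie below 0, and Fos and Arc are among the lowest.

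Among proteases and secretory pathway genes around proneurotrophins, 1 of each list fell past the adjusted threshold in hMet males of the vHPC. Of all genes, 0.659% passed that threshold there, in either direction. Of 12 processing genes measured there, 1 was higher and 2 lower at p under 0.05, where 18.3% of all genes were under it, and WT males had 1 higher and 2 lower too (7.24% of all genes). Pcsk4, a proprotein convertase, fell there by 0.78 on the log2 scale (SE 0.18, adjusted p = 0.0408 by limma), and the mean response of Plat, tissue plasminogen activator, was 0.12 (SE 0.03, unadjusted p of 0.00169, adjusted p = 0.0980). Of 13 secretory pathway genes, 1 was higher and 2 lower in hMet males, near the 18.3% of all genes, and Pcsk1n, an inhibitor of prohormone convertase 1, fell by 0.28 (SE 0.07, adjusted p = 0.0490). In the dHPC the mean of Scg3, a granin that binds secretory granules, was -0.08 (unadjusted p of 0.0200).

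Of 55 genes of Trk and p75NTR signalling, 6 were higher and 10 lower at p under 0.05 in hMet males of the vHPC, against 18.3% of all genes in either direction. Mapk3, the kinase ERK1, fell by 0.22 on the log2 scale there (SE 0.05, adjusted p = 0.0431 by limma). It was the only one of the 55 past the adjusted threshold, where 0.659% of all genes passed. Over the 4 vHPC groups 4 of 55 had a higher and 12 a lower mean at p under 0.05 (14.6% of all genes in either direction), with Nras, a small GTPase downstream of Trk receptors, at -0.11 (unadjusted p of 0.000890, adjusted p = 0.0748) and the adaptor Gab1 at -0.22 (unadjusted p of 0.00256). In the dHPC it was 1 higher and 2 lower (6.82% of all genes), with the adaptor Gab2 at -0.14 (unadjusted p of 0.00657) and the kinase gene Rps6ka1 at -0.17 (unadjusted p of 0.0125). The list medians of these means over 4 groups, -0.01 in both regions, were near those over all genes. Single groups could differ. In hMet males of the dHPC 1 of 55 was higher and 6 lower at p under 0.05, where 6.34% of all genes were under it. Their median there was -0.05, against 0.00 over all genes.

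Among 18 regulators of Bdnf transcription, 2 were higher and 1 lower in hMet males of the vHPC, near the 18.3% of all genes. There 0 of the 18 passed an adjusted p of 0.05, where 0.659% of all genes did. The mean vHPC response was -0.11 (unadjusted p of 0.00399) for Bhlhe40, a repressor that binds E-boxes, and -0.29 (unadjusted p of 0.00654) for Mef2c, an activity-dependent transcription factor. For the mean over the 4 dHPC groups 0 of 18 had a p under 0.05, where 6.82% of all genes did. The smallest p were those of Nfkb1, at a mean of -0.07, and Mef2c, at -0.17. In hMet males of the dHPC alone, 1 of 18 was lower at p under 0.05, where 6.34% of all genes were under it. A list of 15 glucocorticoid receptor genes and targets was chosen with earlier results of these data known, so its counts are a description. Of these 15, 4 were higher (9.33% of all genes) and 1 lower in hMet males of the vHPC. Fam107a and Sult1a1 rose there by 0.77 (SE 0.13, adjusted p = 0.00948 by limma) and 1.19 (SE 0.21, adjusted p = 0.00982), and Fam107a rose in WT males by 0.84 (SE 0.14, adjusted p = 0.0358). Means over the 4 vHPC groups of 0.45 for Fam107a and 0.73 for Sult1a1 both had an adjusted p of 0.00291, and their dHPC means were 0.44 (adjusted p = 0.0525) and 0.71 (adjusted p = 0.209).

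Markers of several cell types also differed with CORT in the comparison where Bdnf, Ntrk3 and Sort1 were higher and where 18.3% of all genes had a p under 0.05. In hMet males of the vHPC all 7 dentate granule cell markers lay above 0 (0.18 to 0.52, median 0.41), 2 of them at p under 0.05. All 8 microglial markers lay below 0 (-0.59 to -0.35, median -0.47), every one at p under 0.05, and so did all 8 oligodendrocyte markers (-0.79 to -0.04, median -0.56), 7 of them at p under 0.05. The 7 neuronal markers had a median of 0.08, with 3 higher at p under 0.05. In WT males, where Ntrk3 and Vgf were higher, granule cell markers had a median of 0.23, with 7 of 7 above 0 and 2 at p under 0.05, and microglial markers one of -0.24, with 3 of 8 lower at p under 0.05, where 7.24% of all genes were under it. Neuronal markers in WT males had a median of 0.09, with 3 of 7 higher at p under 0.05, and for males minus females in the vHPC 4 of 7 were higher (5.61% of all genes), with a median of 0.12. In hMet females these medians were 0.10 for granule cells and -0.09 for microglia. Marker values of WT females are not reported here, nor are those of oligodendrocytes outside hMet males. Whether the markers ran with Bdnf over the 4 groups can therefore not be read from these values. The marker lists were also chosen with earlier results of these data known. The part of these markers in the neurotrophin values was not tested. In mean level, the lowest of 7 neuronal markers stood at 7.91 (dHPC) and 7.75 (vHPC) log2 CPM. The lowest of 7 granule cell markers stood at 3.35 and 2.47, and the lowest of 5 CA1 pyramidal cell markers at 4.13 and 3.70. List medians were 6.69 and 5.79 for granule cells and 7.24 and 6.38 for CA1 cells. Markers of neighbouring tissue had medians of 3.67 and 3.04 (choroid plexus), 4.19 and 3.53 (thalamus), and 2.57 and 2.32 (striatum). All these lists were measured in both regions. They were chosen by cell type or tissue, and their levels were not used to check the region labels.

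Sucla2, Zfp870, Fam13a and G3bp2 were among the 5 genes whose 8 log2 fold changes ran most closely with those of Bdnf, out of 13882 genes averaging at least 1 log2 CPM in both regions. Their Pearson correlations with Bdnf over 8 comparisons were 0.971, 0.971, 0.958 and 0.955. Their changes were smaller than that of Bdnf, at 0.14, 0.13, 0.24 and 0.18 in hMet males of the vHPC. Of the other 7 genes of the rule, Ntf3 was closest to Bdnf (0.831), followed by Sort1 (0.680) and Ntrk3 (0.514), while Vgf (0.02) and Sorcs2 (-0.04) were near 0. These correlations rest on 8 values that share a model within each region, and they are a description with no test.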

How the data were processed

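RNA-seq libraries of the dHPC and vHPC were grouped from the sample labels. Some texts in the labels speak of other replicate numbers, treatment lengths and groups. The sample titles were followed for groups and replicates, and the 6 weeks of treatment are as the paper gives them. Per the paper and labels, the authors discarded reads with a quality score under 15, aligned the rest to GRCm38 (mm10) with STAR, counted them per gene with featureCounts and fitted limma-voom. The versions are not given in the sources used here. The authors deposited, for each gene, log2 values (mean CPM, fold change and its unmoderated SE), a score (the moderated t) and the p-value with its adjusted form. The residual degrees of freedom they deposited were 24 for the dHPC, which 32 libraries in 8 groups would give, and 22 for the vHPC, which 30 would give. Which vHPC libraries or terms account for this is not known. There the median SE of WT males was 1.11 times that of WT females.

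The moderated SE was the fold change over t. Means and differences of the 4 responses of a region summed squared moderated SEs, on the authors' total degrees of freedom, two-sided, with Benjamini-Hochberg adjustment over all genes, which is exact if the model had no further terms. The calculation was tested on simulated data with limma 3.58.1 under R 4.3.3. Sums, tests and plots used Python 3.11.15 with scipy 1.17.1, pandas 2.3.3, matplotlib 3.10.9 and numpy 2.4.6. Of 21114 gene identifiers, 21090 (99.9%) were found in the GRCm38 annotation. Genes, pathway lists and markers were chosen with earlier results of these data known. Genes named are the 8 members, other genes of the ligand, receptor and sorting receptor lists, other list genes at an adjusted p under 0.05 or with the 2 smallest p of a region's mean response, and the 5 genes most like Bdnf. Some genes this rule names are not reported here. Alternatives were p under 0.01, the fold filter, adjusted p, adjustment among genes of at least 1 log2 CPM, unmoderated SEs, a weighted mean, leaving out each group, the longest transcript, and t in place of fold change.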

Additional observations from a re-analysis of the deposited data

Results flagged for a closer look

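Differences between groups of mice in the response to CORT are listed here where a test of the difference had an unadjusted p under 0.05. Several such tests were made per gene in each region, and none of the 8 genes passed adjustment over all genes. The share of all genes given with a difference is for that test alone. In the vHPC males responded more than females by 0.31 for Bdnf (adjusted p = 0.332 by limma's errors), 0.25 for Ntrk3 (0.375), 0.19 for Sort1 (0.349) and 0.14 for Vgf (0.338), where 11.8% of all genes had an unadjusted p under 0.05. Within hMet mice of the vHPC this difference was 0.51 for Bdnf (adjusted p = 0.207), 0.31 for Ntrk3 (0.313) and 0.27 for Sort1 (0.264), against 15.6% of all genes, and within WT mice 0.21 for Vgf (1.00), against 4.33%. Males of the vHPC responded more in hMet than in WT mice by 0.38 for Bdnf (adjusted p = 1.00), against 3.28% of all genes. In the dHPC males responded more than females by 0.21 for Ntrk2 (adjusted p = 0.843, 5.82% of all genes), and hMet more than WT mice by 0.17 for Sorcs2 (1.00, 2.44% of all genes). That difference of Sorcs2 had an unadjusted p of 0.04998 by limma's errors, at the edge of the threshold. Outlying libraries could not be looked for without values per library.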

How the results depend on the processing

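No paired analysis was possible because the tables hold no value per library, and for the same reason no library could be left out. Of the 6 tests of the 8 genes at p under 0.05 in single comparisons, 1 was left with the fold filter of 1.3 and 0 at an adjusted p under 0.05, whether over all genes or over those averaging at least 1 log2 CPM, while 4 were left at p under 0.01 and 5 with unmoderated SEs. Of the 12 at p under 0.05 in the 4 combined responses of each region, 2 were left at p under 0.01 and 0 at an adjusted p under 0.05 with either set of genes, while 9 were left with unmoderated SEs and 12 with a weighted mean. Of the 5 differences within a sex or genotype, 1 was left at p under 0.01 and 3 with unmoderated SEs. Leaving out 1 of 4 groups kept the mean response on its side of p 0.05 in 51 of 64 cases, ended it in 10 and passed it in 3, all 3 for Bdnf. The 5 genes most like Bdnf were the same 5 with t in place of fold change. Genes at the level of Ngfr and Ntf5 are limited by their error.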
